A study of Mus musculus with 8 samples.

Results

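The comparison set RORγt-deficient CD4 T cells that received DMSO, the usual solvent control, against wildtype CD4 T cells that received digoxin, a cardiac glycoside. It used 4 of the 8 arrays of the study, 2 in each group, and all 45037 probe sets of the Affymetrix array that are not controls. Its members were the arrays titled as knockout with DMSO and as wildtype with digoxin, and the wildtype DMSO arrays took no part. Sorted naive C57BL/6 cells had been stimulated through CD3 and CD28 and kept under Th17 conditions for 48 h in every group. The arrays of RORγt-deficient cells with digoxin gave the third corner of the design: they entered the estimate of spread and are set beside the other groups where they carry a value. The deleted allele, the digoxin dose and the source of each replicate were not given in the sources used here, so the tests measure the spread between arrays labelled as biological replicates, which may be technical. The gene that encodes RORγt had no probe set of a single gene name and is not analysed here. It could not serve as a check of the genotype labels.

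RORγt is a nuclear receptor of the ROR family that binds half-site elements in DNA and drives the program of Th17 cells, helper T cells known for interleukin-17. Deletion removes the receptor itself, whereas an antagonist acts on the receptor that is there, and only once it is added. Digoxin is best known as an inhibitor of the Na,K-ATPase, the pump that exchanges sodium for potassium across the plasma membrane, and the study concerned it as an antagonist of RORγt. The direct contrast of knockout with drug asks where these routes to less RORγt activity leave cells in different states.

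Expression is given as log2 intensity relative to the mean of the 4 compared arrays, so that 0 is the midpoint of the contrast, and every difference is RORγt-deficient DMSO minus wildtype digoxin with its standard error (n = 2 arrays per group). No probe set was called different at an adjusted p under 0.05 by limma with Benjamini-Hochberg adjustment over all 45037 (0 called, 0.0%). The smallest adjusted p was 0.217. At an unadjusted p under 0.05 there were 1906 probe sets (4.23%), 776 of them higher (1.72%) and 1130 lower (2.51%) in RORγt-deficient DMSO cells. If p were uniform, 5% would fall under 0.05. The SD of the difference over probe sets was 0.155. The spread between arrays of a group would give 0.168 if all 4 arrays were independent. Same-numbered arrays of the 2 groups deviated together (correlation 0.456), though no label states a shared batch. A shared deviation cancels in the difference, so 0.168 overstates the expected SD and is no measure of noise alone. With the replicate number as a block in limma, 3701 probe sets had an unadjusted p under 0.05. The 95% interval of the difference lay within a 2-fold change in either direction for 99.5% of the probe sets and within a 1.41-fold change for 75.4%, a share that was 46.3% to 51.5% with any 1 of the 4 compared arrays left out. No single gene thus passed the test with 2 arrays per group. The leading genes described below were chosen after their values were seen.

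Of 8 measured markers of CD4 T cells, among them Cd4 and the CD3 chains, 7 had a log2 intensity of 8 or above and 1 lay between 4 and 8. Their differences ran from -0.06 to 0.17 and none had an unadjusted p under 0.05. Of 61 markers over the 8 marker lists, CD4 T cells and the other cell types a sort could hold, 2 had an unadjusted p under 0.05: Itgax, an integrin of dendritic cells, at 0.42 ± 0.18, and Klre1, a receptor of NK cells, at -0.29 ± 0.11. For scale, 1.65% of all 18193 named genes, 1 probe set per gene, were higher and 2.91% lower at that threshold. Arrays of the same group differed from each other by an SD of 0.23 in RORγt-deficient DMSO cells and 0.24 in wildtype digoxin cells. RNA came from whole cultures, so fewer cells of a type and less RNA per cell cannot be told apart in any value below.

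**Figure D1:**
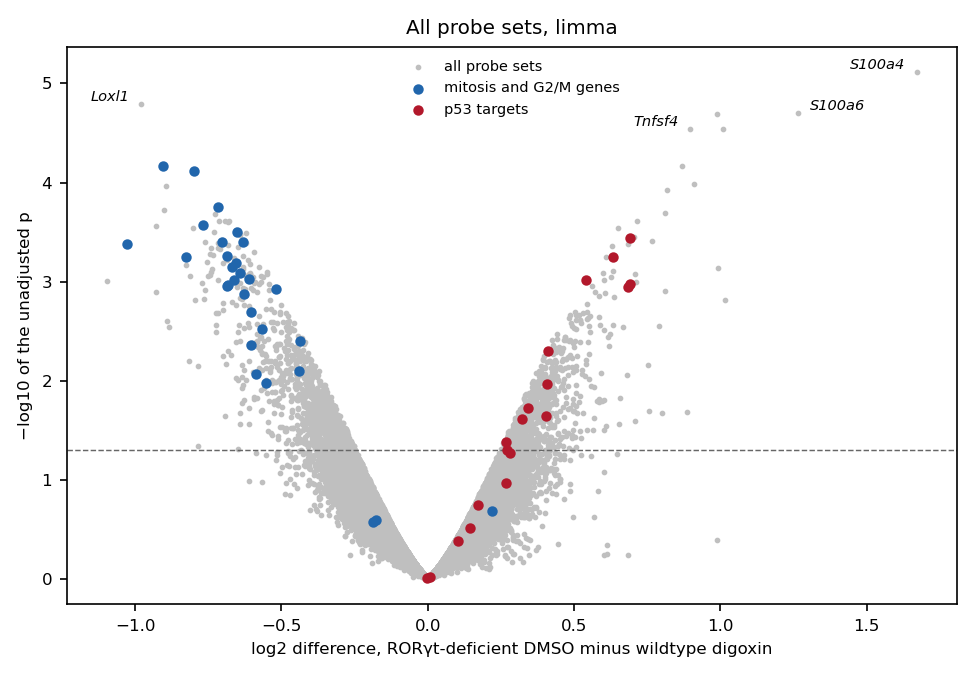
Each point is a probe set, with its log2 difference (RORγt-deficient DMSO minus wildtype digoxin) on the horizontal axis and −log10 of its unadjusted limma p on the vertical axis; the dashed line marks p of 0.05. Genes of mitosis lie on the lower side, p53 targets on the higher side, and S100a4 is farthest to the right at 1.67.

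The 2 largest differences in favour of RORγt-deficient DMSO cells were S100 genes. S100a4 encodes a small calcium-binding protein linked to cell motility and to memory T cells. Its values were 0.91 and 0.76 in the RORγt-deficient DMSO arrays, against -1.05 and -0.62 in the wildtype digoxin arrays. Both knockout arrays were high, both drug arrays were low, and the groups did not overlap. The difference was 1.67 ± 0.18, a 3.18-fold higher intensity (adjusted p 0.217, limma). S100a6, which encodes another calcium-binding protein of the family, calcyclin, had 0.72 and 0.54 in RORγt-deficient DMSO arrays, against -0.44 and -0.83 in wildtype digoxin arrays. That gave 1.27 ± 0.15, or 2.41-fold (adjusted p 0.217).

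These genes lie close together on mouse chromosome 3, with S100a5 between them. The S100a5 probe set showed 0.08 ± 0.13 and its groups overlapped. S100a3, on the other side of S100a4 in the same cluster, showed 0.60 ± 0.23, and S100a10, the partner of annexin A2, showed 0.29 ± 0.11. Of the 13 S100 and annexin genes measured, 4 were higher and 0 lower at an unadjusted p under 0.05, where 1.65% of all 18193 named genes were higher and 2.91% lower, 1 probe set per gene. The list's median was 0.08, against -0.01 over all genes, and its lowest member, S100a9, stood at -0.15 ± 0.16. In RORγt-deficient cells with digoxin, S100a4 was 0.71 and 0.35 and S100a6 was 0.61 and 0.51, close to the knockout without drug: the digoxin minus DMSO difference within RORγt-deficient cells was -0.31 ± 0.18 for S100a4 and -0.07 ± 0.15 for S100a6.

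Other genes with the smallest p on the higher side belonged to varied families. Tnfsf4, which encodes OX40 ligand, a costimulatory ligand of the TNF superfamily, was 0.42 and 0.48 in RORγt-deficient DMSO arrays, against -0.40 and -0.50 in wildtype digoxin arrays (0.90 ± 0.11, 1.86-fold, adjusted p 0.217). The drug-treated knockout arrays lay midway, at 0.00 and 0.05. Mndal, a member of the interferon-inducible HIN-200 family, was higher by 1.01 ± 0.13, and its other probe set gave 0.67. Both lay in the lowest intensity range. Slfn1, a Schlafen gene known from growth control of thymocytes in mice, was 0.37 and 0.45 in RORγt-deficient DMSO arrays, against -0.33 and -0.49 in wildtype digoxin arrays (0.82 ± 0.12). A further Slfn1 probe set had the opposite sign, at -0.33, so the gene's direction rests on 1 of its 2 probe sets. Its chromosome 11 neighbour Slfn2, known for keeping T cells quiescent in mice, showed 0.57 ± 0.12, and the other 5 of 7 Schlafen genes lay between -0.02 and 0.11.

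The remaining leading genes on the higher side were Glipr1 at 0.87 ± 0.12, Ntmt1, an N-terminal methyltransferase, at 0.91 ± 0.13, Cox6b2, a cytochrome c oxidase subunit known from testis, at 0.81 ± 0.13, and Dglucy at 0.72 ± 0.12. Slc19a2, the thiamine transporter, stood at 0.70 ± 0.12, Zmat3, a p53 target, at 0.69 ± 0.12, and Nrp1, the semaphorin receptor neuropilin-1, at 0.77 ± 0.14. None passed adjustment, with adjusted p from 0.380 to 0.430. Glipr1 and Ntmt1 each had 1 further probe set with little difference, 0.03 for Glipr1 and 0.08 for Ntmt1. The 3 further probe sets of Nrp1 ranged from -0.04 to 0.21.

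On the lower side the gene with the smallest p was Loxl1, which encodes a lysyl oxidase that cross-links elastin. It was -0.54 and -0.44 in RORγt-deficient DMSO arrays, against 0.54 and 0.44 in wildtype digoxin arrays, a difference of -0.98 ± 0.11 (adjusted p 0.217). The groups did not overlap. A further Loxl1 probe set in the lowest intensity range showed -0.07. Beside it stood genes of the dividing cell: Kif20a, a kinesin of the central spindle, at -0.90 ± 0.13, Knstrn, a spindle and kinetochore adaptor, at -0.90 ± 0.15, Arhgef39, a guanine nucleotide exchange factor, at -0.90 ± 0.13, Ccnb2, a cyclin of mitotic entry, at -0.80 ± 0.11, and Cenpf, a kinetochore protein, at -0.77 ± 0.13. Kif23, Cenpe, Prc1, Ccna2, Sapcd2 and Dlgap5 completed the 12, between -0.73 and -0.68. The 2 other probe sets of Sapcd2 gave -0.13 and 0.01. Past a 2-fold difference there were 4 probe sets higher and 2 lower. The higher ones were S100a4, S100a6, Mndal and a probe set with no gene name at 1.02 ± 0.22. The lower ones were Neil3, a DNA glycosylase, at -1.10 ± 0.22 (-0.66 on its other probe set), and Sgo2a, a shugoshin that protects centromeric cohesion, at -1.03 ± 0.19.

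**Figure D2:**
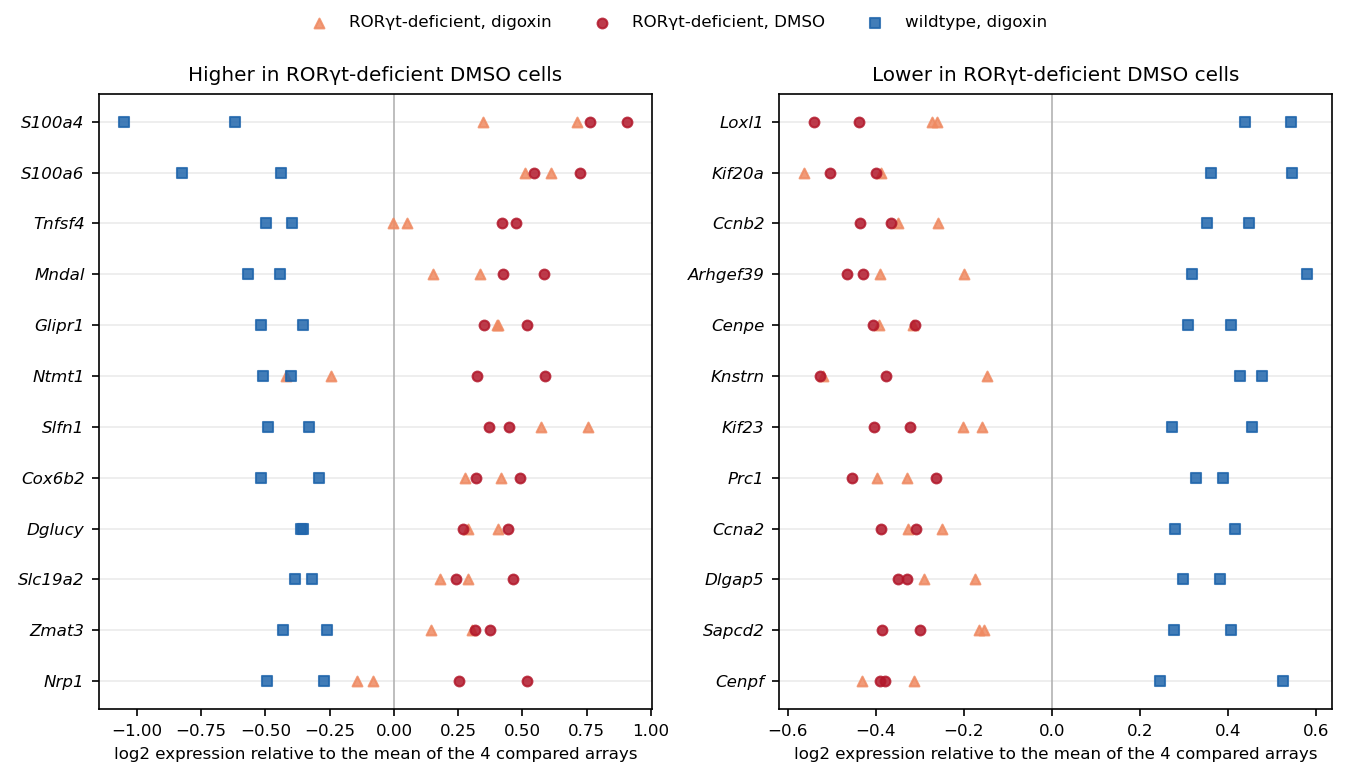
The 12 named genes with the smallest p in each direction, chosen after their values were seen, with log2 expression relative to the mean of the 4 compared arrays on the horizontal axis and 1 point per array. Triangles (RORγt-deficient, digoxin) lie near the circles (RORγt-deficient, DMSO) for S100a4 and the mitotic genes, and near the squares (wildtype, digoxin) for Ntmt1.

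Among the 35 gene lists, the median farthest from 0 was that of the machinery of mitosis. Of 29 measured genes of mitosis and G2/M, 26 were lower in RORγt-deficient DMSO cells at an unadjusted p under 0.05 and 0 higher. At that threshold 2.91% of all genes were lower and 1.65% higher. All 26 had groups that did not overlap, where 17.0% of all genes had the RORγt-deficient DMSO arrays below both wildtype digoxin arrays and 13.6% above both. None was called after adjustment. The list's median difference was -0.64, against -0.01 over all genes, with a range from -1.03 to 0.22. The list medians by array were -0.30 and -0.33 in RORγt-deficient DMSO cells, against 0.43 and 0.22 in wildtype digoxin cells.

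The members covered every stage of division. Ccnb2 was -0.44 and -0.36 in RORγt-deficient DMSO arrays, against 0.45 and 0.35 in wildtype digoxin arrays. Cdk1, the kinase that cyclin B activates at mitotic entry, was -0.31 and -0.33 in RORγt-deficient DMSO arrays, against 0.38 and 0.26 in wildtype digoxin arrays (-0.63 ± 0.11). In both genes each knockout array lay below each drug array by a margin wider than the gap between arrays of a group. The mitotic kinases Plk1 (-0.64 ± 0.13), Aurka (-0.61 ± 0.12) and Aurkb (-0.55 ± 0.17) were all lower. So were Bub1 (-0.83 ± 0.16) and Bub1b (-0.65 ± 0.11) of the spindle checkpoint, Ndc80 (-0.70 ± 0.13) of the outer kinetochore and Birc5 (-0.69 ± 0.13), which encodes survivin. Mki67, which encodes the proliferation antigen Ki-67, stood at -0.68 ± 0.14 and Cdc20, the activator of the anaphase-promoting complex, at -0.52 ± 0.11. For the 3 genes above the threshold, the probe set used for the list differed from the others. Top2a, topoisomerase II alpha, gave 0.22 ± 0.16 in the lowest intensity range, against -0.55 and -0.54 on its other probe sets. Ttk, a checkpoint kinase, gave -0.18 ± 0.14, against -0.72 on its other probe set. Kif23 gave -0.19 ± 0.16, against -0.73 and -0.63 on its others.

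The arrays of RORγt-deficient cells with digoxin, which are outside the contrast, gave a further reading of this group. All 29 genes had a mean in those arrays nearer to RORγt-deficient DMSO than to wildtype digoxin, as did 53.7% of all genes, 66.6% of the genes lower and 66.4% of those higher at an unadjusted p under 0.05. The list medians in the drug-treated knockout arrays were -0.30 and -0.26. The median difference was -0.60 for RORγt-deficient digoxin minus wildtype digoxin, and 0.01 for RORγt-deficient digoxin minus RORγt-deficient DMSO. These comparisons each reuse a group of the main contrast, so the values are given side by side only. Both wildtype digoxin arrays stood above the other 4 arrays on this list, the first farther than the second.

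Promoters of the mitotic genes are shown because the members lay on one side together and such genes commonly carry paired CCAAT and cell cycle homology elements, known binding sites of NF-Y and of the DREAM complex. RefSeq windows from 250 bases before to 50 after the start (GRCm38.p6) were found for 25 of the 29 genes. CCAAT occurred in 20 of 25 (80.0%) and TTTGAA in 18 of 25 (72.0%), on either strand. Both occurred in 16 of 25 (64.0%). Of the 14452 measured genes with a window, 42.0% held CCAAT, 15.7% TTTGAA and 6.21% both. The sequences below run 5′ to 3′ up to the base before the start, with CCAAT (or its complement ATTGG) and TTTGAA in capitals: Ccnb2 at chr9:70421555-70421724 on the minus strand, Cdk1 at chr10:69352913-69353032 on the minus strand, and Prc1, a cross-linker of the central spindle, at chr7:80294356-80294475 on the plus strand.
Ccnb2: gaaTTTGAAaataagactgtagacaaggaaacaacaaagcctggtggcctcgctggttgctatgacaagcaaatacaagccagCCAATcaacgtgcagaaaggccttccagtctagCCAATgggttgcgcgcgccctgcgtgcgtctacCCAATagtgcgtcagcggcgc
Cdk1: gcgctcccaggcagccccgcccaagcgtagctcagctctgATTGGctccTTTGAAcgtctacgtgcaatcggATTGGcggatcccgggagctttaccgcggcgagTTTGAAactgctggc
Prc1: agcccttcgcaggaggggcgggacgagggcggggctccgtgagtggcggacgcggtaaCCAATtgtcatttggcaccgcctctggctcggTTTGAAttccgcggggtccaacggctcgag
Matches to either motif may share a base with the other. A match describes the letters in the window, and binding was not measured.

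Genes of DNA replication lay on the same side by smaller amounts. Of 25 measured, 15 were lower and 0 higher at an unadjusted p under 0.05, and the median was -0.37. At that threshold 2.91% of all genes were lower and 1.65% higher. Cdc45, part of the replicative helicase, was -0.30 and -0.33 in RORγt-deficient DMSO arrays, against 0.43 and 0.20 in wildtype digoxin arrays (-0.63 ± 0.12). Rrm2, the small subunit of ribonucleotide reductase, stood at -0.58 ± 0.12, the polymerase subunits Pole at -0.64 ± 0.14 and Pola1 at -0.53 ± 0.13, and Cdc6, a loader of the helicase, at -0.65 ± 0.20. Tyms, thymidylate synthase, was -0.03 on the probe set used for the list and -0.33 to 0.00 on 3 others. Mcm3, a helicase subunit, was 0.35 ± 0.28 on the probe set used for the list, but its 4 other probe sets, all at 8 or above, ran from -0.54 to -0.26 with no overlap between groups. The count of 15 rested partly on single arrays: it was 6 without the first wildtype digoxin array and 9 without the second RORγt-deficient DMSO array. The list medians by array were -0.11 and -0.24 in RORγt-deficient DMSO cells, against 0.34 and 0.09 in wildtype digoxin cells. TTTNNCGC, the E2F site, occurred in the windows of 11 of 20 replication genes (55.0%), against 8.24% of measured genes.

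Targets of p53 ran the other way. p53 is the transcription factor that answers DNA damage and other stress by halting the cell cycle or starting apoptosis. Of 19 measured targets, 11 were higher in RORγt-deficient DMSO cells at an unadjusted p under 0.05 and 0 lower. Of all genes, 1.65% were higher and 2.91% lower at that threshold. Among the targets, 15 had groups that did not overlap, where 13.6% of all genes lay above without overlap. None of the targets was called after adjustment. Their median was 0.32 and the members ran from 0.00 to 0.69. The count of 11 was 7 without the second wildtype digoxin array.

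Phlda3, an inhibitor of AKT signalling, was 0.32 and 0.31 in RORγt-deficient DMSO arrays, against -0.24 and -0.39 in wildtype digoxin arrays (0.63 ± 0.12). The proapoptotic genes Pmaip1 (Noxa) and Bbc3 (Puma) each stood at 0.69 ± 0.14, Ccng1, cyclin G1, at 0.54 ± 0.11, and Cdkn1a, the cell cycle inhibitor p21, at 0.41 ± 0.11. Fas, the death receptor, was also at 0.41, with an SE of 0.13. Mdm2, the ubiquitin ligase of p53, was 0.01 ± 0.15 on the probe set used for the list, in the lowest intensity range, and 0.36 ± 0.12 and 0.42 ± 0.11 on its 2 other probe sets, both at 8 or above. Of the 19 genes, 16 had a drug-treated knockout mean nearer to RORγt-deficient DMSO: the median was 0.30 for RORγt-deficient digoxin minus wildtype digoxin and -0.05 for RORγt-deficient digoxin minus RORγt-deficient DMSO.

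Genes of the amino acid stress response, driven by the transcription factor ATF4, had a median below 0 in RORγt-deficient DMSO cells relative to wildtype digoxin cells. At an unadjusted p under 0.05, 8 of 24 were lower and 1 higher, where 2.91% of all genes were lower and 1.65% higher. Of the 24, 16 lay below without overlap, where 17.0% of all genes did. The median was -0.23. Slc7a5, the large neutral amino acid transporter, was -0.23 and -0.21 in RORγt-deficient DMSO arrays, against 0.27 and 0.16 in wildtype digoxin arrays (-0.44 ± 0.11). Asns, asparagine synthetase, stood at -0.40 ± 0.11, Shmt2, the mitochondrial serine hydroxymethyltransferase, at -0.41 ± 0.11, and Cth, cystathionine gamma-lyase, at -0.50 ± 0.16. The 1 higher member was Sesn2 at 0.40 ± 0.15, which is also in the p53 list, and the gene Atf4 itself showed 0.12. The count of 8 was 5 without the first wildtype digoxin array. On the probe sets used for the lists, no unfolded protein response gene (18 measured) or heat shock gene (14 measured) had an unadjusted p under 0.05. Their medians were both -0.05. Other probe sets could differ: Hspa4l, an HSP70 family gene, was 0.13 ± 0.14 on the probe set used and ran from -0.09 to 0.35 on others.

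**Figure D3:**
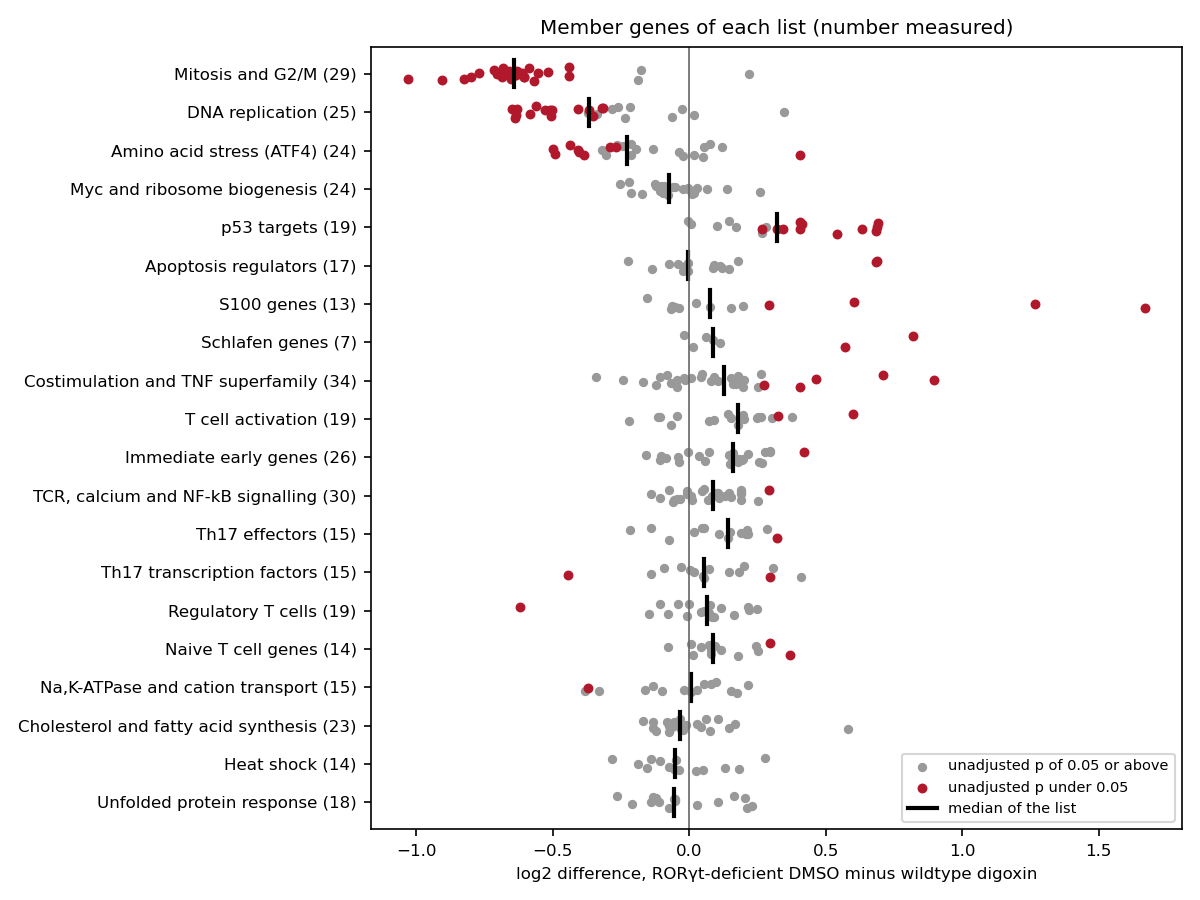
Points are member genes of 20 lists, with the log2 difference (RORγt-deficient DMSO minus wildtype digoxin) on the horizontal axis, red where the unadjusted p was under 0.05, and a black bar at each list's median. Mitosis and G2/M lies lowest with a median of -0.64, and p53 targets lie highest at 0.32.

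In the list of costimulation and TNF superfamily genes, 5 of 34 were higher and 0 lower at an unadjusted p under 0.05, with a median of 0.13. At that threshold 1.65% of all genes were higher and 2.91% lower. Besides Tnfsf4 and Fas the higher members were Tnfsf8, CD30 ligand, at 0.71 ± 0.15, the decoy receptor Tnfrsf23 at 0.47 ± 0.15 and Lta, lymphotoxin alpha, at 0.27 ± 0.11. Fasl, the ligand of Fas, was -0.34 ± 0.15. Among 19 T cell activation genes, Cd69, an early activation antigen, was 0.55 and 0.05 in RORγt-deficient DMSO arrays, against -0.06 and -0.54 in wildtype digoxin arrays (0.60 ± 0.20). Its arrays differed within each group by almost as much as between groups. Cd44, an adhesion receptor of activated cells, was 0.33 ± 0.12, and the list's median was 0.18. Among 26 immediate early genes only Ier5, at 0.42 ± 0.11, had an unadjusted p under 0.05 on the probe set used for the list. Of the 26, 11 lay above without overlap, where 13.6% of all genes did. Egr3 was -0.16 ± 0.11 on the probe set used for the list and 0.50 ± 0.19 on another, each without overlap, so its direction is not settled.

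Genes of the Th17 program are those RORγt is known to drive. Il17a, the signature cytokine, was 0.24 and 0.04 in RORγt-deficient DMSO arrays, against -0.09 and -0.19 in wildtype digoxin arrays. The groups did not overlap, but the difference of 0.29 ± 0.13 had a 95% interval from -0.02 to 0.59. Among 15 measured Th17 effector genes 1 had an unadjusted p under 0.05, Csf2, which encodes GM-CSF, at 0.32 ± 0.13. Over all genes, 1.65% were higher and 2.91% lower at that threshold, so a count of 1 says little about the list. The range over the measured genes was -0.21 to 0.32. The list held 20 genes, and Il17f, Il22, Il23r, Podnl1 and Toso were not measured. The chemokine receptor Ccr6 showed 0.14 ± 0.16, its ligand Ccl20 0.06 ± 0.13, and the interleukin-1 receptor Il1r1 0.02 ± 0.12. Among 15 transcription factors of Th17 cells, Ahr, the aryl hydrocarbon receptor, was -0.44 ± 0.14 and Satb1, a chromatin organizer, was 0.30 ± 0.12, both at an unadjusted p under 0.05. Maf, which encodes c-Maf, was 0.41 ± 0.19 on the probe set used for the list, which overlapped between groups, and 0.38 to 0.47 on its 5 other probe sets, 4 of which did not overlap. Rora, the related receptor that shares Th17 functions with RORγt, was 0.15 ± 0.15.

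In the comparisons with the drug-treated knockout, 1 probe set was called, that of Il17a. It was -1.62 and -1.87 in RORγt-deficient digoxin arrays, far below both single treatments. It fell by 1.88 on the log2 scale in RORγt-deficient digoxin relative to RORγt-deficient DMSO (adjusted p 0.0143, limma), the only one of 45037 probe sets called in that comparison (0.00222%). Leaving out any 1 RORγt-deficient array, with DMSO or digoxin, ended the call, and the difference then ran from -2.01 to -1.76. Quantile normalization reduced the difference to -0.92. That step gives every array the same distribution of values, which can by itself shrink an extreme value. Against wildtype digoxin the difference was -1.60 (adjusted p 0.0555, 0 called, 0.0%). It was called there with 1 probe set per gene (adjusted p 0.0182), with all 8 arrays (0.00868) and with the replicate block (0.00771). At an unadjusted p under 0.05 there were 1774 probe sets in that comparison (3.94%) and 1231 in RORγt-deficient digoxin minus RORγt-deficient DMSO (2.73%). The same arrays were low for Gap43, a growth-associated protein gene, at -0.85 and -0.86, while its main contrast was 0.03 ± 0.14. The Il17a promoter is shown for the ROR half-site AGGTCA, which it holds on the opposite strand as TGACCT, in capitals, beginning 120 bases before the start. It lies at chr1:20730735-20730904 on the plus strand (RefSeq, GRCm38.p6).
Il17a: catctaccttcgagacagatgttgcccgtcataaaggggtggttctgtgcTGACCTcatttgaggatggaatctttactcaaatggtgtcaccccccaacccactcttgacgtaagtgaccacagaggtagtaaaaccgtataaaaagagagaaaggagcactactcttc
The letters AGGTCA, on either strand, occurred in the windows of 3 of 13 Th17 effector genes (23.1%) and in 16.5% of the 14452 measured genes.

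A list of 19 genes was kept because earlier results had them move with both the knockout and the drug. In the direct contrast 6 were higher and 4 lower at an unadjusted p under 0.05, and the median was 0.12. At that threshold 1.65% of all genes were higher and 2.91% lower. The list was picked on these arrays, so its make-up is no independent evidence. The genes closest to 0 were Klrd1, an NK cell lectin receptor, at 0.01 with a 95% interval from -0.25 to 0.28, Gap43 at 0.03, Klrk1, which encodes NKG2D, at 0.03, Hspa1b, an inducible HSP70, at -0.04, and Plac8 at -0.05 with an interval from -0.33 to 0.23. These intervals admit moderate differences in either direction. Il10, the regulatory cytokine, was 0.24 and -0.13 in RORγt-deficient DMSO arrays, against 0.07 and -0.19 in wildtype digoxin arrays, and the groups overlapped.

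Others of the 19 were farther apart. S100a4 at 1.67, S100a6 at 1.27 and Slfn1 at 0.82, described above, also belong to this list. Iyd, iodotyrosine deiodinase, was -0.14 and -0.49 in RORγt-deficient DMSO arrays, against 0.56 and 0.06 in wildtype digoxin arrays (-0.63 ± 0.18). Ppp1r14c, an inhibitor of protein phosphatase 1, was -0.19 and -0.44 in RORγt-deficient DMSO arrays, against 0.44 and 0.19 in wildtype digoxin arrays (-0.63 ± 0.14). Both were lower with the gene deleted than with the drug. Nupr1, a stress-induced nuclear protein, stood at -0.49 ± 0.13. Nkg7, a cytotoxic granule membrane protein, stood at 0.47 ± 0.12. Igfbp7 was 0.41 ± 0.14, with other probe sets at 0.03 and 0.02. Moxd1, a monooxygenase, was -0.30 and -0.31 in RORγt-deficient DMSO arrays, against 0.52 and 0.09 in wildtype digoxin arrays.

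**Figure D4:**
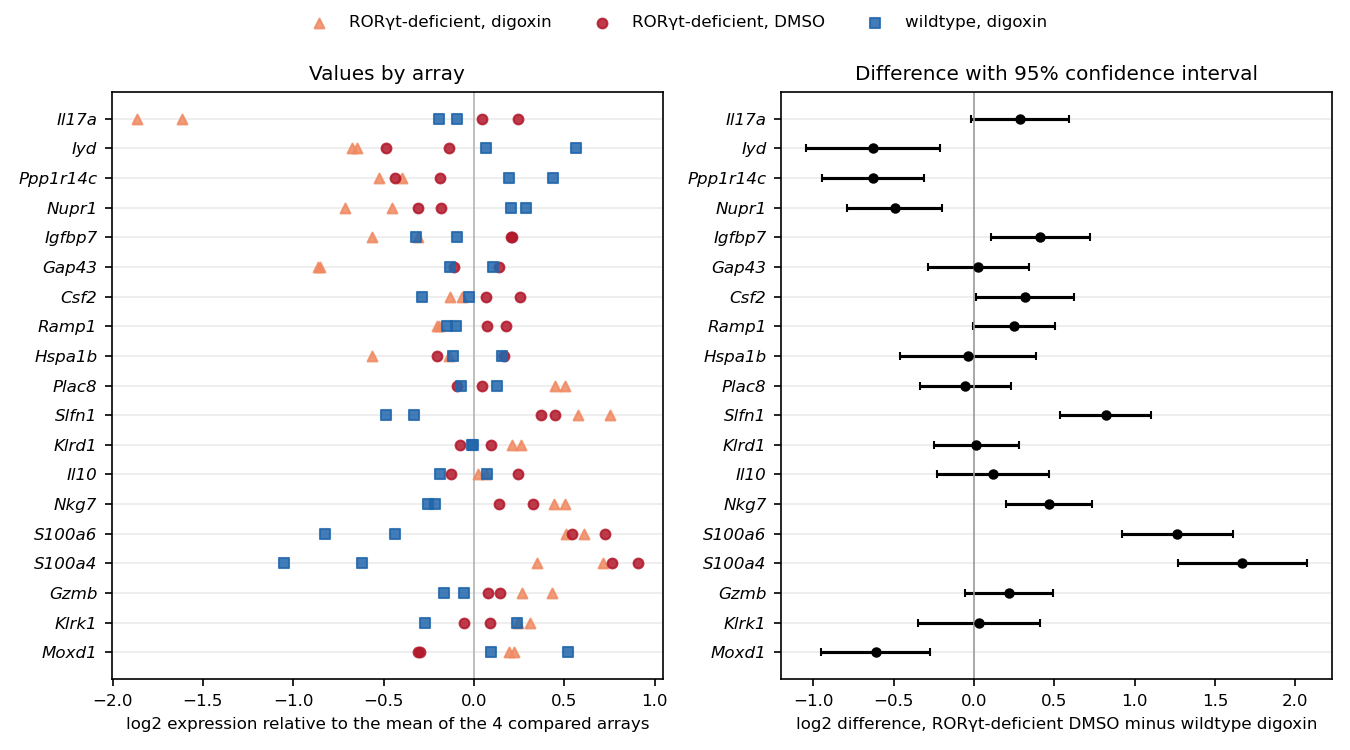
For 19 genes that earlier results placed in both responses, the left panel gives log2 expression relative to the mean of the 4 compared arrays, 1 point per array, and the right panel gives the log2 difference (RORγt-deficient DMSO minus wildtype digoxin) with its 95% confidence interval. Il17a lies near 0 in both compared groups and at -1.62 and -1.87 in RORγt-deficient digoxin arrays.

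Of 16 Th1 genes 1 was lower at an unadjusted p under 0.05, Hlx, a homeobox gene, at -0.43 ± 0.16, and of 14 Th2 genes 1 was higher, Penk. The shares over all genes were 2.91% lower and 1.65% higher, so these single genes say little about their lists. Foxp3 of regulatory T cells was 0.07 ± 0.16, Tbx21 of Th1 cells -0.02 ± 0.11 and Ifng -0.03 ± 0.20. Gata3 of Th2 cells was 0.31 ± 0.15 and Il4 0.19 ± 0.12. The probe sets of Foxp3, Ifng and Il4 lay in the lowest intensity range. Il21 was -0.21 ± 0.13 on one probe set and 0.18 on another. Of 19 measured regulatory T cell genes, the 1 with an unadjusted p under 0.05 was Entpd1, the ectonucleotidase CD39. It was -0.38 and -0.24 in RORγt-deficient DMSO arrays, against 0.36 and 0.26 in wildtype digoxin arrays, without overlap (-0.62 ± 0.13). Ccr7, the homing receptor of naive cells, was 0.18 and 0.19 in RORγt-deficient DMSO arrays, against -0.19 and -0.18 in wildtype digoxin arrays (0.37 ± 0.11).

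The Na,K-ATPase is the known protein target of digoxin. Among 15 measured genes of the pump and of cation transport, 1 had an unadjusted p under 0.05, the potassium channel Kcnk5 at -0.37 ± 0.12, and the median was 0.01. For comparison, 2.91% of all genes were lower and 1.65% higher at that threshold. The pump subunit Atp1b1 was -0.33 ± 0.16, and its 4 other probe sets ran from -0.15 to 0.26. Of the 35 lists, 8 had no member at an unadjusted p under 0.05 on the probe sets used. Among them were cholesterol and fatty acid synthesis (23 genes, median -0.03), glycolysis and hypoxia (23 genes, 0.00), ribosome biogenesis (24 genes, -0.08) and nuclear receptors (25 genes, 0.11). Bop1, a ribosome biogenesis gene, was -0.11 ± 0.16 on the probe set used and 0.28 ± 0.11 on another.

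The drug-treated knockout arrays also sorted the individual genes at the edge of the contrast. Among 348 genes with an unadjusted p under 0.01 and no overlap, 163 had a drug-treated knockout mean within 25% of the gap from RORγt-deficient DMSO and 27 within 25% from wildtype digoxin. Of the 235 lower genes, 121 lay by RORγt-deficient DMSO and 16 by wildtype digoxin. Of the 113 higher genes, 42 and 11 did. The share of all genes in these bands was not computed, and 53.7% of all genes had that mean nearer to RORγt-deficient DMSO. By the choice of band, the 27 are genes whose digoxin arrays of both genotypes lay together, apart from the RORγt-deficient DMSO arrays. Without the wildtype DMSO arrays, a drug effect cannot be told apart from a knockout effect seen only without the drug. Ntmt1 was -0.42 and -0.24 in RORγt-deficient digoxin arrays and 0.32 and 0.59 in RORγt-deficient DMSO arrays, against -0.40 and -0.51 in wildtype digoxin arrays. Ppp1r3c, a glycogen-targeting subunit of protein phosphatase 1, was 0.17 and 0.36 in RORγt-deficient digoxin arrays and -0.34 and -0.31 in RORγt-deficient DMSO arrays, against 0.30 and 0.35 in wildtype digoxin arrays. Moxd1, Ift81, a gene of intraflagellar transport, and Gpr15, known for guiding T cells to the colon, were placed in the same way on the lower side. Lrrc8d, a subunit of volume-regulated anion channels, and Sdf4 were placed so on the higher side. Several of these placements rest on 1 probe set of the gene. Ift81 was -0.63 on that probe set and -0.25 and 0.08 on 2 others. Lrrc8d was 0.52 and -0.04 on another, and Sdf4 was 0.43 and 0.27 and -0.01 on others. None of these differences passed adjustment.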

How the data were processed

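RNA of 8 mouse CD4 T cell cultures was hybridised to Affymetrix arrays. The authors deposited log2 expression values, made with RMA per the submitters' processing notes (version not given in the sources used here) and analysed in GeneSpring per the series' design text. Tested on the file, the deposited log2 values sum to 0 over the wildtype DMSO arrays within 1e-06, so they are differences from those arrays' mean and hold no absolute level. Differences between other groups are unaffected. Broad intensity ranges were read from the numerical step of the values. Of 45101 probe sets, 64 controls were left out, 34945 had 1 gene symbol, 932 several and 9160 none. limma 3.58.1 (R 4.3.3; lmFit, eBayes) was fitted to the 6 arrays other than wildtype DMSO, with 3 residual and 5.6 prior degrees of freedom, and p-values were adjusted over all 45037 probe sets. The median standard error was 0.13. The number of arrays limits the precision. Lists used 1 probe set per gene (18193 genes). The rule fixed for named genes took called genes, members of the lists and T helper genes. As none was called, the 24 leading genes (smallest p, no overlap), those past 2-fold and those placed by the drug-treated knockout were chosen after their values were seen. The comparison's members and all gene lists were chosen with earlier results of these data known. The code was tested on simulated data.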

Additional observations from a re-analysis of the deposited data

How the results depend on the processing

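Across 14 alternatives, 2 of them (leaving out an RORγt-deficient digoxin array) added after seeing the data, 0 probe sets were called in RORγt-deficient DMSO minus wildtype digoxin, with a smallest adjusted p from 0.0682 to 1.0. With 1 probe set per gene 877 had an unadjusted p under 0.05, and with the replicate block 3701, against 1906 in the main analysis. Leaving out 1 array gave 1645 to 2658, and 46.3% to 71.8% of intervals within 0.5 of 0. Same-numbered arrays deviated together (correlations 0.304 to 0.456), but only 2 numbers exist and no label states a shared batch, so the block is given here only. Without 1 array, list medians ranged from -0.748 to -0.522 (mitosis), -0.499 to -0.268 (DNA replication), 0.295 to 0.338 (p53 targets) and -0.245 to -0.185 (ATF4, -0.161 with quantile normalization). Their members past the unadjusted threshold ranged from 6 to 18, 7 to 11 and 5 to 7 for replication, p53 and ATF4. Il17a in RORγt-deficient digoxin minus RORγt-deficient DMSO was -0.916 with quantile normalization (adjusted p 1.0) and -2.01 to -1.76 without 1 array. Against wildtype digoxin it was called at -1.60 with 1 probe set per gene, all 8 arrays or the replicate block (adjusted p 0.0182, 0.00868 and 0.00771) and ran from -1.72 to -1.47 without 1 array. The replicate block called 4 probe sets there and changed no other call. All 24 leading genes kept their direction under all 14 alternatives. Of 64 gene differences, 11 changed direction. Under quantile normalization these were Hspa1b (0.17), Il10 (-0.0587), Klrd1 (-0.14) and Klrk1 (-0.10). Without 1 array the differences ranged from -0.0322 to 0.144 for Ccl20, -0.00061 to 0.29 for Ccr6, -0.10 to 0.15 for Gap43, -0.22 to 0.15 for Hspa1b, -0.30 to 0.24 for Ifng, -0.0671 to 0.30 for Il10, -0.0841 to 0.12 for Il1r1, -0.0724 to 0.10 for Klrd1, -0.22 to 0.29 for Klrk1, -0.15 to 0.0479 for Plac8 and -0.0593 to 0.0104 for Tbx21. The causes were not tested. That there are 2 arrays per group limits all of these values.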

Other observations

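Several list members not described above also had an unadjusted p under 0.05, and none passed adjustment by limma. Among interleukin receptors, Il12rb1, a subunit of the interleukin-12 and interleukin-23 receptors, was 0.32 ± 0.13 and Il2rb, a chain of the interleukin-2 receptor, was 0.30 ± 0.12. Il1r2, the decoy receptor of interleukin-1, was -0.33 ± 0.13. Penk, which encodes proenkephalin, was 0.21 and 0.15 in RORγt-deficient DMSO arrays, against -0.15 and -0.21 in wildtype digoxin arrays (0.36 ± 0.11). Dbp, a clock output gene, was -0.36 ± 0.12. Gbp2, an interferon-induced GTPase, was 0.27 ± 0.11, the only 1 of 25 interferon response genes past that threshold, where 1.65% of all genes were higher.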
